A study of Homo sapiens with 6 samples.

Results

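The genes described here encode the collagen chains and the enzymes that modify, trim and cross-link them. Members were chosen by gene symbol, as all COL genes with a chain number, the P4HA, PLOD, LOX and LOXL families, P3H1, P3H2, P3H3, CRTAP, COLGALT1, PCOLCE and BMP1. The rule found 61 members among 23786 rows of the expression table, of which 43 encode collagen chains and 18 encode enzymes and cofactors. COL17A1 was not analysed here.

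The cells were HSC3, an established human line of oral squamous carcinoma, grown as 3 wells that received 0.1 μM E7386 in DMSO and 3 wells that received 0.1% DMSO alone. The DMSO percent in the E7386 wells is not stated. Treatment began 12 to 24 hours after seeding, at about 50% confluency, and RNA was taken after 48 to 64 hours. E7386 is a small molecule described as blocking the interaction of β-catenin with its coactivator CBP. Each array is titled a biological replicate and each group had separate wells, but separate experiments are not stated. A p-value here therefore reflects well-to-well spread, which can be partly technical.

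Collagens are proteins of 3 chains wound into a triple helix, rich in glycine and proline. In the endoplasmic reticulum, prolyl 4-hydroxylases stabilise the helix, prolyl 3-hydroxylases and lysyl hydroxylases add further hydroxyl groups, and a galactosyltransferase attaches sugar to hydroxylysine. After export, C-proteinases such as BMP1 trim the fibrillar chains, and lysyl oxidases cross-link the assembled collagen. Stratified epithelia rest on a basement membrane built on collagen IV and anchored by collagen VII, while fibrillar collagens I and III come mainly from fibroblasts.

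Levels are log2 RMA values, in which a step of 1 is a doubling, and the median row of the table lay at 3.76. RMA gives no detection call and compresses differences of dim genes, so a value below the median row may be background. All 9 measured epithelial markers lay above that row, with DMSO means of 7.07 to 11.6. Of these 3, or 33.3%, passed the test described below, near the 33.2% of all rows above the median row. KRT14 and KRT5, keratins of basal epithelium, fell by 1.64 ± 0.11 and 0.79 ± 0.081 on the log2 scale (SE, n = 3 wells per group, limma adjusted p = 0.000144 and 0.000807), and the desmosomal cadherin gene DSG3 rose by 0.59 ± 0.094 (limma adjusted p = 0.00486). Of 10 fibroblast markers 9 lay below the median row in their mean over the 6 wells, THY1 being the exception. The summed log2 level of the 10 fibroblast markers was 22.8 to 23.4 in DMSO wells and 21.4 to 22.2 in E7386 wells. Their median difference was 0.011, with 5 of 10 above 0, and FAP held most of the change in the sum. FAP fell by 0.87 ± 0.13 on the log2 scale (SE, n = 3 wells per group, limma adjusted p = 0.00351), and DCN and LUM are also counted below as matrix genes. Of 6 leukocyte and 6 endothelial markers 5 each lay below the median row in that mean, with CD68 and CLDN5 above it, and none passed. The part of these markers in the results was not tested. Over all rows, pairs of like-treated wells had Pearson correlations of 0.992 to 0.995, and pairs of unlike wells 0.982 to 0.985.

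Of the 61 members 8 passed an adjusted p under 0.05 in limma, 13.1% against 18.6% of all rows. With E7386 P4HA2, LOX, PLOD3, COL5A1 and COLGALT1 rose, and COL18A1, LOXL2 and P3H3 fell. Higher members were 5 of 61, where 9.93% of all rows were higher, and lower members were 3, where 8.69% of all rows were lower. The median difference over members was -0.010, and over all rows it was -0.016. In their mean over all 6 wells 32 members lay above the median row, and 25% of these passed, against 33.2% of all rows so placed.

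The 18 enzyme and cofactor genes held 6 of the 8 calls and the 43 chain genes held the other 2. By the mean over all wells 26 of 43 chain genes and 3 of 18 enzyme and cofactor genes lay below the median row. Above it, 11.8% of 17 chain genes and 40% of 15 enzyme and cofactor genes passed, against the 33.2% of all such rows. The wells of the 2 groups did not overlap in 17 members, 27.9%, compared with 35.2% of all rows. Within groups the median SD was 0.128 for members and 0.148 for all rows. The mean level over the 43 chain genes was 3.54 to 3.56 in DMSO wells and 3.48 to 3.52 in E7386 wells. Over the 18 enzyme and cofactor genes it was 5.86 to 5.97 and 6.04 to 6.13.

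**Figure D1:**
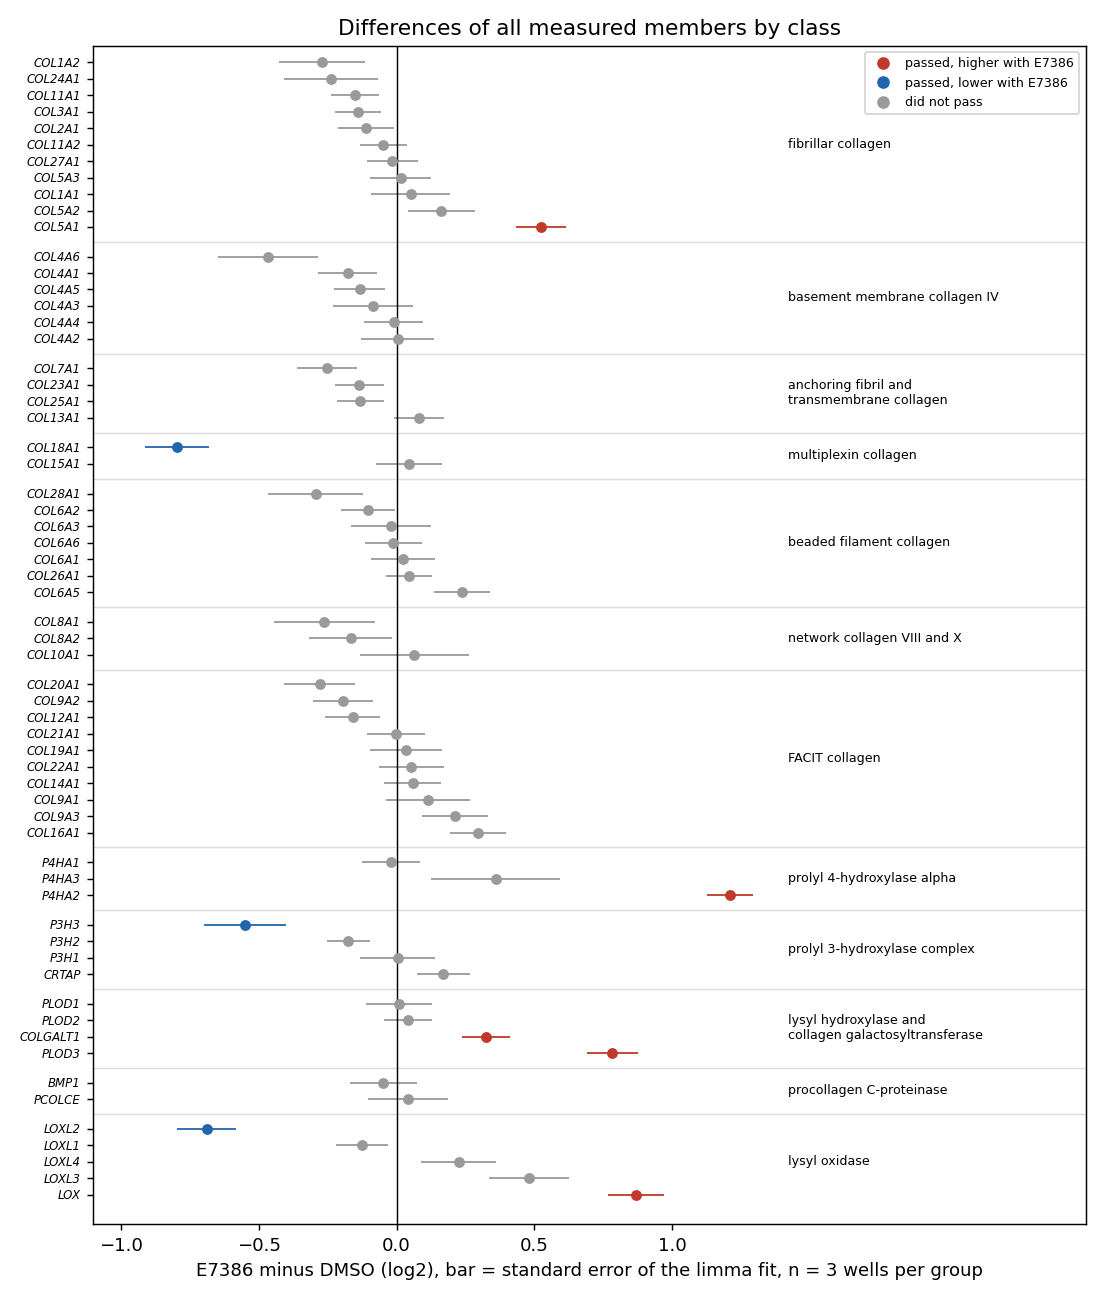
Difference between E7386 and DMSO wells (log2, horizontal axis) of the 61 members, grouped by class, with the standard error of the limma fit as a bar and n = 3 wells per group. Of the members that passed, P4HA2, LOX, PLOD3, COL5A1 and COLGALT1 stand to the right of 0 and COL18A1, LOXL2 and P3H3 to the left. LOXL3 at 0.48, P4HA3 at 0.36 and COL4A6 at -0.47 did not pass and lie farther from 0 than COLGALT1 at 0.32.

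Among fibrillar collagens, the chains that form striated fibrils, COL5A1 alone of 11 measured genes passed the test. COL5A1 encodes a chain of collagen V, a minor component that helps start collagen fibrils and limits their width. COL5A1 stood at 5.26, 5.37 and 5.35 in the DMSO wells and at 5.95, 5.85 and 5.76 in the E7386 wells. Every treated well lay above every control well. The rise was 0.52 ± 0.091 on the log2 scale (SE, n = 3 wells per group), or 1.44-fold, with a limma adjusted p of 0.00707. Its partner chain COL5A2 was dim, at 2.14 ± 0.088 (SD, n = 3) in DMSO, and its difference of 0.16 ± 0.12 (SE) did not pass (limma adjusted p = 0.443).

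The chains of collagen I, the main collagen of skin and bone, did not pass. COL1A1 was at 5.53, 4.97 and 5.24 in DMSO and at 5.37, 5.25 and 5.27 with E7386. The treated wells lay inside the control range. COL1A2, the other chain of the same protein, was below the median row in both group means, and its difference was -0.27 ± 0.16 (SE, limma adjusted p = 0.311). COL3A1, the chain of collagen III, was at 2.34 ± 0.045 (SD, n = 3) in DMSO. The 10 fibrillar genes that did not pass had differences from -0.27 to 0.16, and 7 of them had a mean over the 6 wells below the median row.

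Collagen IV genes, which encode the network of the basement membrane, did not pass in any of 6 cases. COL4A5 and COL4A6, whose chains combine in epithelial basement membranes, lay above the median row in all wells. COL4A6 was at 4.98, 5.45 and 4.72 in DMSO and at 4.54, 4.71 and 4.50 with E7386. The treated wells lay below the control wells, the highest treated well by a narrow margin. Its difference was -0.47 ± 0.18 (SE) with a limma adjusted p of 0.132, and leaving out 1 well moved it from -0.63 (adjusted p = 0.0496, without DMSO replicate 3) to -0.26 (0.238, without DMSO replicate 2). COL4A1 was at 3.56, 3.58 and 3.52 in DMSO and at 3.18, 3.47 and 3.49 with E7386, below the median row in all wells. COL4A2 was at 4.05, 4.29 and 3.80 in DMSO and at 4.12, 4.03 and 3.99 with E7386, with overlapping groups.

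These 6 genes lie head to head in pairs. In RefSeq (GRCh38.p14) the promoter windows of COL4A1 and COL4A2, from 250 bases before to 50 after the start, overlap by 226 bases on opposite strands. The windows of COL4A5 and COL4A6 overlap by 121 bases and those of COL4A3 and COL4A4 by 82. The change of COL4A1 minus that of COL4A2 was -0.18, and -0.29 to -0.045 without 1 well. That of COL4A5 minus that of COL4A6 was 0.33, and 0.13 to 0.48 without 1 well. That of COL4A3 minus that of COL4A4 was -0.076, and -0.20 to 0.13 without 1 well. The wells overlapped in each pair (exact two-sided permutation p = 0.4, 0.2 and 0.8 over 6 wells).

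COL7A1, the chain of the anchoring fibrils beneath squamous epithelium, was well above the median row. It was at 5.66, 5.73 and 5.65 in DMSO and at 5.63, 5.35 and 5.31 with E7386. The treated wells lay below the control wells, 1 of them only just. The difference of -0.25 ± 0.11 (SE) did not pass (limma adjusted p = 0.172). The transmembrane collagen genes COL13A1, COL23A1 and COL25A1 did not pass either.

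COL18A1 had the largest fall among the members. It encodes collagen XVIII, a basement membrane proteoglycan whose end fragment is endostatin. COL18A1 was at 4.21, 4.38 and 4.28 in DMSO and at 3.35, 3.43 and 3.70 with E7386. No treated well reached the lowest control well, and the treated mean lay below the median row, so the size of the fall is uncertain. It fell by 0.80 ± 0.12 on the log2 scale (SE, n = 3 wells per group), or 1.74-fold (limma adjusted p = 0.00337). COL15A1, the other multiplexin, was dim at 2.21 in DMSO and differed by 0.045 ± 0.12 (SE).

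The remaining 20 chain genes, of the beaded filament, network and FACIT classes, held no call. By the mean over the 6 wells, 5 of 7 beaded filament, 2 of 3 network and 7 of 10 FACIT genes lay below the median row. For these dim genes the lack of a call does not show that the level was unchanged. FACIT collagens sit on the surface of larger fibrils, and COL12A1, at 7.18 ± 0.10 (SD, n = 3) in DMSO, showed a difference of -0.16 ± 0.099 (SE). COL16A1 was at 4.86, 4.90 and 4.95 in DMSO and at 5.32, 5.03 and 5.24 with E7386. Its treated wells all lay above its control wells, and its difference of 0.30 ± 0.10 (SE) did not pass (limma adjusted p = 0.0915). It passed, at 0.03, when rows below the median were left out of the fit, and in no other alternative. The limma adjusted p was 0.163 with renewed quantile normalization and 0.0596 to 0.233 without 1 well. COL6A1 and COL6A2, chains of the microfibrillar collagen VI, differed by 0.024 ± 0.12 and -0.10 ± 0.099 (SE).

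**Figure D2:**
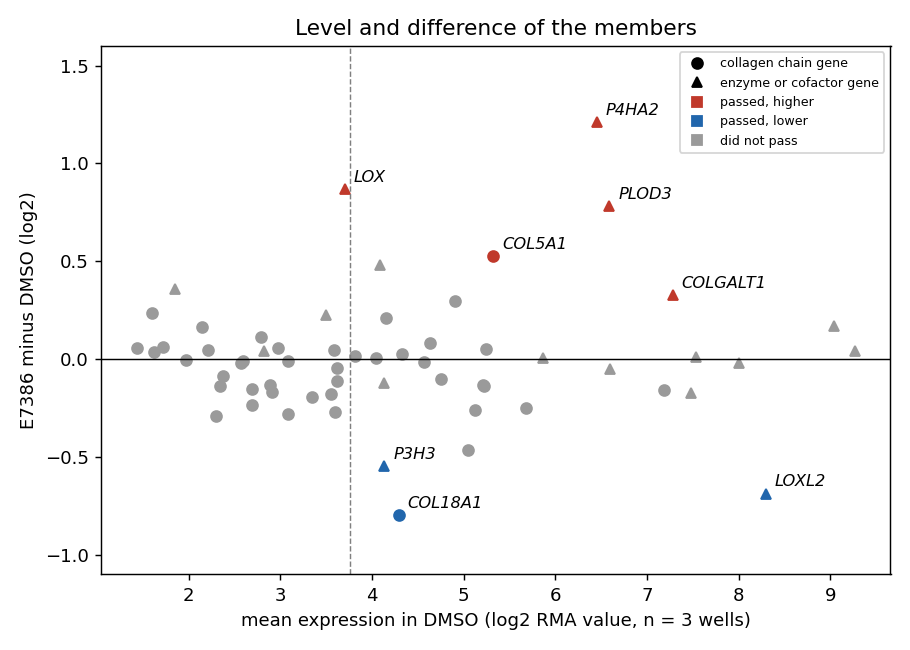
Mean log2 RMA value in the DMSO wells (horizontal axis, n = 3) against the difference between E7386 and DMSO wells (log2, vertical axis) for the 61 members, with circles for chain genes, triangles for enzyme and cofactor genes and a dashed line at the median row of 3.76. The 8 members that passed lie near or to the right of the line.

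Prolyl 4-hydroxylase holds a catalytic alpha subunit, encoded by P4HA1, P4HA2 or P4HA3, and the disulfide isomerase P4HB. P4HA2 had the largest difference of all members. P4HA2 was at 6.52, 6.39 and 6.44 in DMSO and at 7.63, 7.66 and 7.69 with E7386. The gap between the groups was far wider than the spread within them. P4HA2 rose by 1.21 ± 0.084 on the log2 scale (SE, n = 3 wells per group), or 2.31-fold, with a limma adjusted p of 0.000164. It was the sole member to pass a test against a minimum of 1.5-fold.

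P4HA1 did not pass. It was at 8.00, 8.14 and 7.87 in DMSO and at 7.93, 8.09 and 7.93 with E7386, with the treated wells inside the control range. P4HA3 was at 1.92, 1.85 and 1.77 in DMSO and at 2.57, 2.44 and 1.61 with E7386. Among its treated wells, 2 lay above the controls and replicate 3 below them, all under the median row. Its difference of 0.36 ± 0.24 (SE) had a limma adjusted p of 0.369, and leaving out 1 well moved it from 0.18 (adjusted p = 0.688, without E7386 replicate 1) to 0.66 (0.0141, without E7386 replicate 3). P4HB, the partner subunit, rose by 0.46 ± 0.079 (SE, limma adjusted p = 0.00692).

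The change of P4HA2 exceeded that of P4HA1 by 1.23 on the log2 scale, with separate wells. Over the 12 pairs of related genes compared, 5 had separate wells. Each had an exact two-sided permutation p of 0.1, the smallest that 3 against 3 wells allow, and an adjusted p of 0.24. Each of the 5 held a member that passed with its own wells apart, so the count largely restates those calls. Of all rows taken singly 35.2% had wells apart, and no such share was computed for pairs.

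Lysyl hydroxylases prepare lysines for cross-linking and for sugar attachment. PLOD3, whose product also carries glycosyltransferase activity, was at 6.64, 6.59 and 6.53 in DMSO and at 7.28, 7.33 and 7.49 with E7386. The groups were clearly apart. PLOD3 rose by 0.78 ± 0.094 (SE, n = 3 wells per group), or 1.72-fold, with a limma adjusted p of 0.00154. COLGALT1, which attaches galactose to hydroxylysine, was at 7.24, 7.23 and 7.36 in DMSO and at 7.57, 7.66 and 7.58 with E7386. Its wells were also apart, and the rise was 0.32 ± 0.087 (SE), or 1.25-fold (limma adjusted p = 0.0381). Dropping any single well cost COLGALT1 its call, with adjusted p-values of 0.0505 to 0.128 over the 6 wells.

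The other lysyl hydroxylases did not pass. PLOD1, which acts on the helical part of the chain, was at 7.69, 7.35 and 7.56 in DMSO and at 7.66, 7.42 and 7.55 with E7386. PLOD2, which acts on the chain ends, was at 9.22, 9.37 and 9.21 in DMSO and at 9.26, 9.33 and 9.32 with E7386. In both genes the groups overlapped. The change of PLOD2 minus that of PLOD3 was -0.74, with separate wells (exact two-sided permutation p = 0.1).

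In the prolyl 3-hydroxylase group, P3H3 fell. Mouse P3H3 acts with lysyl hydroxylase 1. P3H3 was at 4.14, 4.02 and 4.24 in DMSO and at 3.65, 3.83 and 3.28 with E7386. The groups did not overlap, and the treated mean lay below the median row, so the size of the fall is uncertain. The fall was -0.55 ± 0.15 (SE, n = 3 wells per group), or 1.46-fold, with a limma adjusted p of 0.0403. Its call was lost when any well other than E7386 replicate 2 was left out (adjusted p = 0.0685 to 0.115). P3H1 and CRTAP, which form a complex that modifies collagen I, differed by 0.0036 ± 0.13 and 0.17 ± 0.096 (SE) and did not pass. P3H2 differed by -0.17 ± 0.079 (SE, limma adjusted p = 0.188), with all treated wells below the controls. The C-proteinase BMP1 and its enhancer PCOLCE differed by -0.049 ± 0.12 and 0.041 ± 0.14 (SE).

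Lysyl oxidases, the copper enzymes that start cross-linking outside the cell, went both ways. LOX was at 3.83, 3.54 and 3.74 in DMSO and at 4.59, 4.61 and 4.52 with E7386. Every treated well lay above every control well, and the control mean lay just under the median row, so the size of the rise is uncertain. LOX rose by 0.87 ± 0.10 (SE, n = 3 wells per group), or 1.83-fold, with a limma adjusted p of 0.00143. LOXL2, which cross-links collagen IV, was at 8.30, 8.27 and 8.31 in DMSO and at 7.74, 7.66 and 7.41 with E7386. All treated wells were lower than all control wells, and both groups lay far above the median row. LOXL2 fell by 0.69 ± 0.11 (SE), or 1.61-fold (limma adjusted p = 0.00454). The change of LOXL2 minus that of LOX was -1.56. Its wells were bound to be separate (exact two-sided permutation p = 0.1), since the wells of each gene were apart in opposite directions. The pair therefore adds nothing to the calls of LOXL2 and LOX.

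LOXL3 was at 4.23, 3.85 and 4.19 in DMSO and at 4.35, 4.70 and 4.68 with E7386. Its treated wells lay above its controls, and its difference of 0.48 ± 0.15 (SE) did not pass (limma adjusted p = 0.0586). It passed under an intensity trend (0.0454, or 0.0469 with a robust prior), with array weights (0.0396), without the dim rows (0.0212) and without E7386 replicate 1 (0.0401). With renewed quantile normalization (0.0762), array medians subtracted (0.0692), a replicate block (0.108) or a 1.5-fold minimum it did not pass. Nor did it pass without any other single well (0.0692 to 0.174). LOXL1 and LOXL4 differed by -0.12 ± 0.095 and 0.23 ± 0.14 (SE) and did not pass.

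**Figure D3:**
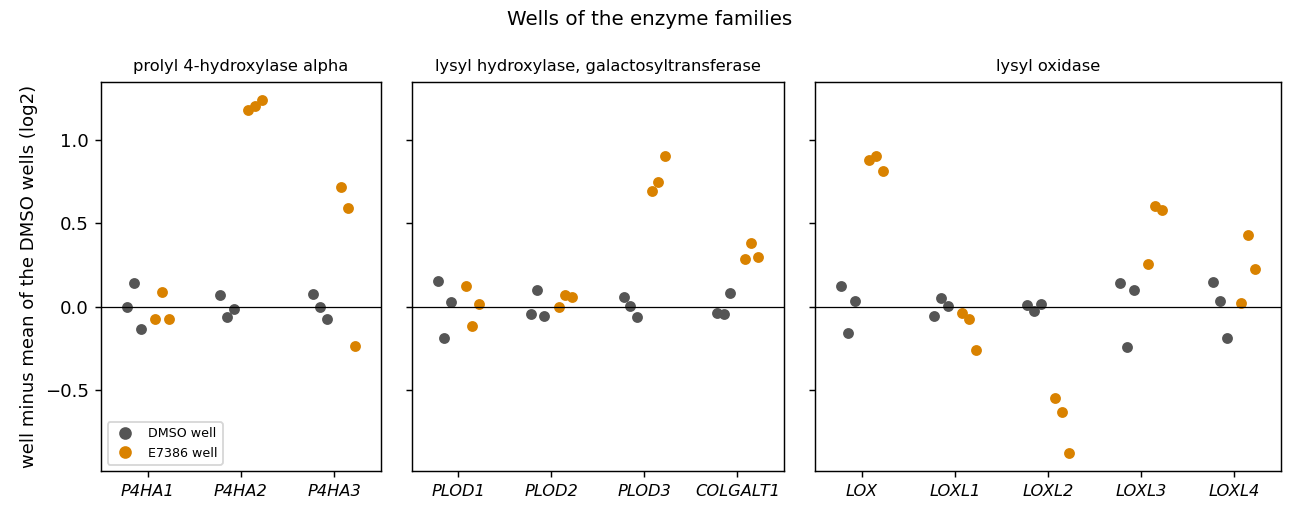
Value of each well minus the mean of the 3 DMSO wells of the same gene (log2, vertical axis) for the prolyl 4-hydroxylase, lysyl hydroxylase with galactosyltransferase, and lysyl oxidase genes, with grey points for DMSO and orange points for E7386 wells. P4HA2, PLOD3, COLGALT1 and LOX lie above 0 in all treated wells and LOXL2 below it, while P4HA1, PLOD1 and PLOD2 overlap their controls. LOXL3 and LOXL4 also lie above 0 in all treated wells and LOXL1 below it, though none of these passed.

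**Figure D4:**
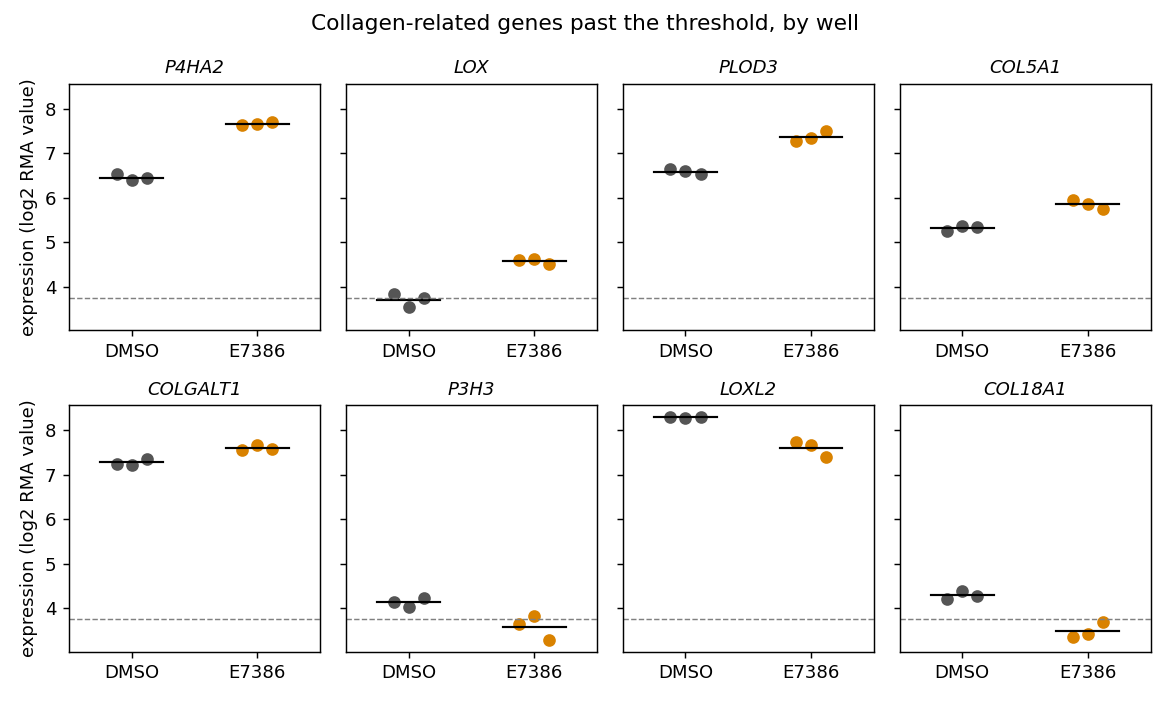
Log2 RMA value (vertical axis) in each of 3 DMSO and 3 E7386 wells for the 8 members that passed the test, with the group mean as a black line and the median row of 3.76 as a dashed line. The wells of the groups do not overlap in any panel, and LOX, P3H3 and COL18A1 lie close to the dashed line.

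The promoter windows of P4HA2, which passed the test, and of P4HA1, which did not, are shown with those of LOX and PLOD3, the next largest rises, to set sequence beside the values above. The sequences are from RefSeq (GRCh38.p14), 300 bases each, and read 5′ to 3′ along the gene. P4HA2 spans chr5:132227042-132227341 on the minus strand, P4HA1 chr10:73096817-73097116 on the minus strand, LOX chr5:122078210-122078509 on the minus strand and PLOD3 chr7:101217532-101217831 on the minus strand. Capitals mark the hypoxia response element core, ACGTG or GCGTG on either strand, the only searched motif that these 4 windows held.
P4HA2: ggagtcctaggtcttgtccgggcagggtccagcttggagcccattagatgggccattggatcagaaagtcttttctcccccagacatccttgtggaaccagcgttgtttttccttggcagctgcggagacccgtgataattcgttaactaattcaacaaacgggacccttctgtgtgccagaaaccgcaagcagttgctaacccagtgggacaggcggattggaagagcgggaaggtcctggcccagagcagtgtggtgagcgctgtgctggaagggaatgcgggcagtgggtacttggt
P4HA1: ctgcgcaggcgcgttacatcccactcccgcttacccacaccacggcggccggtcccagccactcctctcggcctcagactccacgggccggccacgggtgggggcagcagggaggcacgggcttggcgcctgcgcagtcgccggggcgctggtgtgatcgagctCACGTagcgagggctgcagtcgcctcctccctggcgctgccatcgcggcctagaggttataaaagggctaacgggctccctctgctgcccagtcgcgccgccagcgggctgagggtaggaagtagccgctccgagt
LOX: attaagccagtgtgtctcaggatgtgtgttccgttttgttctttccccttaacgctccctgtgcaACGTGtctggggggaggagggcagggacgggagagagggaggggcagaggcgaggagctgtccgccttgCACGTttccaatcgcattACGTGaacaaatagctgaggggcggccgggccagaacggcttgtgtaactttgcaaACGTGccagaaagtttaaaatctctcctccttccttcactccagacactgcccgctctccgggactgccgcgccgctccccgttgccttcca
PLOD3: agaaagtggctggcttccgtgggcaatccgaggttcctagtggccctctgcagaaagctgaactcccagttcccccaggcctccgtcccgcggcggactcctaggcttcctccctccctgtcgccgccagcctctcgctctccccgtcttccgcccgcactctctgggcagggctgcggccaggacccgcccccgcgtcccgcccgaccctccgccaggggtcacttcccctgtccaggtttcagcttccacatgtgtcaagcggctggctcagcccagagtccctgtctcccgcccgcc

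The core was found 4 times in the LOX window, once in that of P4HA1, and not in those of P4HA2 or PLOD3, and no matches overlapped. Only the first listed window of each gene was searched, so any other start was left out. Of 27305 promoter windows of the same length 48.4% held it at least once. The share with as many matches as LOX was not computed. It was in 23 of the 46 members with a window and in 3 of the 7 such members that passed the test. The other motifs searched on both strands were the TCF/LEF motif, read as CTTTGAA or as CTTTGAT or else as CTTTGTA or as CTTTGTT, the AP-1 motif TGANTCA and the ATF4 motif TGATGNAA. They were in 13.9%, 7.76% and 3.67% of all windows, in 4, 0 and 0 of the 46 members, and in none of the 7. A match is only a run of letters and does not show binding.

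Genes that act with collagens were read from 7 lists. In the list counts, genes that rose or fell are those that passed the test in that direction. Over all rows 9.93% passed as higher and 8.69% as lower, and 33.2% of rows above the median row passed in either direction. In the list of procollagen folding and export 8 of 17 measured genes rose and 1 fell, with a median difference of 0.34. SEC24D, a coat protein of the vesicles that carry procollagen, rose by 0.84 ± 0.099 (SE, limma adjusted p = 0.00146), from 6.64 in DMSO. FKBP14, a prolyl isomerase, rose by 0.59 ± 0.096, and KLHL12, a ubiquitin ligase adaptor for large procollagen vesicles, by 0.50 ± 0.12. MIA2, which acts at the sites of export, rose by 1.12 ± 0.22 from 3.17, below the median row. SERPINH1, the collagen chaperone HSP47, differed by 0.21 ± 0.090 and did not pass (limma adjusted p = 0.163). The count of 9 dropped to 5 without DMSO replicate 2 or 3 or E7386 replicate 1 or 2, and each of these lost KLHL12.

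In the list of collagen degradation and uptake 5 of 12 rose and 1 fell, with a median of 0.26. The collagenase gene MMP13 fell by 1.68 ± 0.15 (SE, limma adjusted p = 0.000413), from 5.71 to 4.03. MMP1, a brighter collagenase gene, rose by 0.53 ± 0.096 (SE, limma adjusted p = 0.00852), from 8.66 to 9.19. The collagenase gene MMP8 was at 1.79 in DMSO, below the median row, and did not pass. The gelatinase gene MMP9 rose by 1.25 ± 0.12, from 4.21 to 5.46. CTSB, a lysosomal protease gene, rose by 0.70 ± 0.081, and PEPD, which splits dipeptides ending in proline, by 0.69 ± 0.084. In the processing list 2 of 9 passed. PCOLCE2, a second C-proteinase enhancer, rose by 0.82 ± 0.13, and TLL2, a BMP1-like protease, fell by 0.92 ± 0.11.

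Of 10 collagen receptor genes 2 rose and 1 fell. ITGA1 and ITGA2, whose integrins bind collagen, rose by 0.49 ± 0.099 and 0.40 ± 0.085 (SE), and ITGA10 fell by 0.39 ± 0.10 below the median row. ITGA10 did not pass under an intensity trend (adjusted p = 0.0694). The count of 3 became 1 without DMSO replicate 2 and 0 without E7386 replicate 2. In the list of basement membrane partners 4 of 15 rose and 2 fell, with a median of -0.060. FRAS1, an epithelial basement membrane protein, rose by 1.24 ± 0.089, LAMB2, a laminin chain, by 0.91 ± 0.087, and PXDN, the peroxidase that cross-links collagen IV, by 0.71 ± 0.12. NID1, which links laminin to collagen IV, fell by 0.77 ± 0.12 from 3.06, below the median row.

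Of 16 fibril-associated matrix genes 4 rose and 3 fell, with a median of 0.023. FBN1, a microfibril gene, rose by 1.00 ± 0.11, TNC, the gene of tenascin C, by 0.92 ± 0.11, and the matricellular gene THBS1 by 0.59 ± 0.087, while THBS2 fell by 0.64 ± 0.10. In the list of proline, glycine and ascorbate supply 4 of 11 rose and 1 fell, with a median of 0.19. The glycine transporter gene SLC6A9 rose by 1.44 ± 0.10 and the proline synthesis gene PYCR1 by 1.26 ± 0.16. SHMT2, which makes glycine in mitochondria, rose by 0.65 ± 0.088, and PSAT1, of serine synthesis, by 0.63 ± 0.084. The gene that fell was SHMT1, by 0.58 ± 0.085 (limma adjusted p = 0.00345), from 7.24 to 6.65. PHGDH and ALDH18A1 differed by 0.057 ± 0.090 and 0.074 ± 0.079 and did not pass. All gene errors in the partner lists are SE of the limma fit with n = 3 wells per group, and 18.6% of all rows passed. Of rows whose mean over all wells lay above the median row 33.2% passed. So placed were 15 of the 17 folding and export genes, 3 of 9 in processing, 8 of 12 in degradation and uptake, 5 of 10 receptors, 10 of 15 basement membrane partners, 9 of 16 fibril-associated genes and 10 of 11 in supply. Of these, in that order, 8, 2, 6, 2, 5, 6 and 5 passed.

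**Figure D5:**
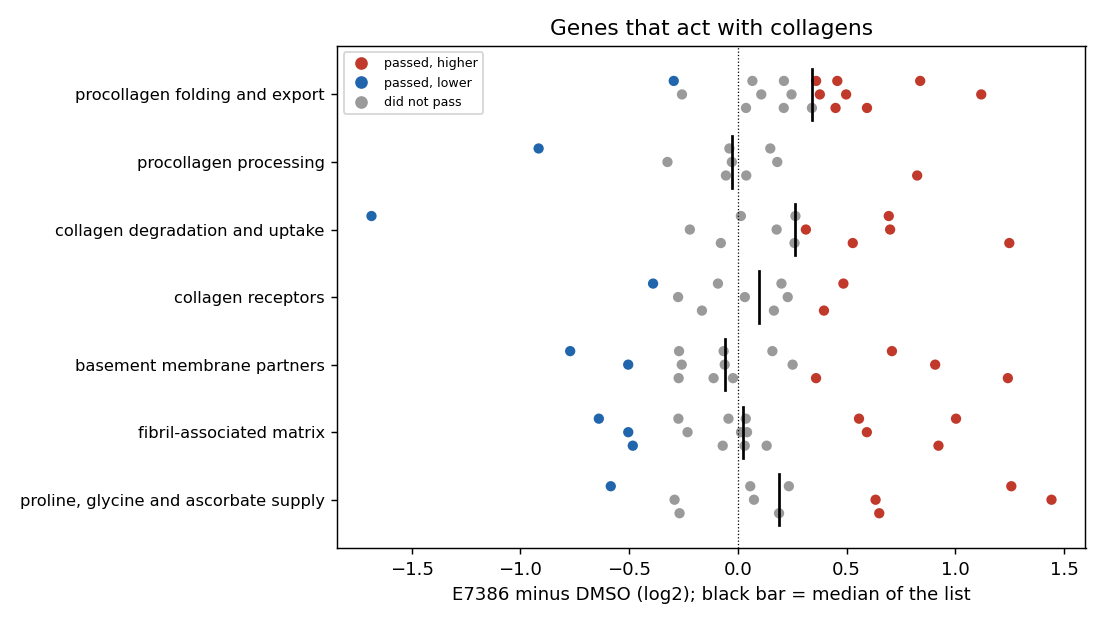
Difference between E7386 and DMSO wells (log2, horizontal axis) for each measured gene of the 7 partner lists, with red and blue points for genes that passed the test, grey points for those that did not, and a black bar at the median of the list. Medians run from -0.060 for basement membrane partners to 0.34 for procollagen folding and export.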

How the data were processed

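The authors deposited log2 values, produced by RMA in affy 1.36.1 per the submitters' processing notes. This method corrects background, quantile-normalizes the arrays and summarises probes per gene. The sources used here name no probe set definition and no genome build. Platform annotation gave 1 symbol to 22458 of 23786 rows, several to none and none to 1328. All 61 member symbols matched RefSeq, 46 with a promoter window.

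The values were used as deposited. A two-group model was fitted to all rows and 6 arrays with limma 3.58.1 in R 4.3.3, with Benjamini-Hochberg adjustment over all rows and a threshold of 0.05. No set test was run. The number of arrays limits the precision. Members, lists and pairs were chosen with earlier results of these data known. Each member that passed and a short list of others were given by well, and up to 4 passing genes of largest difference were named per partner list. P4HB, SERPINH1, MMP1, MMP8, SHMT1, PHGDH, ALDH18A1, single markers and members outside this rule were named after their values were seen. Alternatives were other normalizations, filters, priors, weights, a replicate block, a fold minimum and leaving out wells.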

Additional observations from a re-analysis of the deposited data

How the results depend on the processing

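The members' counts moved by over 1.5 times in 1 alternative, a test against a 1.5-fold minimum, which left 1 member, P4HA2, 1 of them higher and 0 lower. It left 422 rows of the whole table, 194 higher and 228 lower. In the partner lists it left 2 genes of collagen degradation and uptake, 1 of basement membrane partners, 1 of proline, glycine and ascorbate supply, and 0 in each of the other 4. Leaving out 1 well gave 6 to 7 members, 4 to 5 higher and 2 to 3 lower. The whole table then gave 2907 to 3635 genes, 1534 to 1978 higher and 1373 to 1657 lower, the lowest without E7386 replicate 3. The folding and export list gave 5 to 9 and the receptor list 0 to 3. Other settings gave 6 to 10 members. Some members that did not pass changed sign: COL4A2 to -0.022 with renewed quantile normalization, -1.84e-05 with array weights and -0.12 to 0.12 without 1 well, COL1A1 to -0.0070 with renewed quantile normalization and -0.087 to 0.19 without 1 well, P4HA1 from -0.088 to 0.050 without 1 well, and PLOD1 to -0.00042 with array weights and -0.084 to 0.087 without 1 well. The cause was not tested. Deviations from the group means were weakly related between wells with the same replicate number (correlations 0.051, 0.12 and -0.0077 over rows). Wells of unlike number were not compared, so whether wells with the same number were handled together cannot be told. With the replicate number as a block 6 members passed, 4 higher and 2 lower, without COLGALT1 (adjusted p = 0.0809) and P3H3 (0.084). Low signal limits the 29 members whose mean over the 6 wells lay below the median row.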
